A study of Mus musculus with 12 samples.

Results

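Transcripts of 10 genes known from endothelial cells were followed in RNA of sorted lung CD4+ T cells. The genes are Kdr, Tie1, Gpr116, Cd93, Cdh5, Pecam1, Cav1, Scn7a, Thbs1 and Sele, 10 of 19434 genes in the count table, and all 10 passed the filter on low counts. The set was chosen by values of these same counts, the levels of the genes in the 4 groups and the directions in which they differed. Their differences between groups are therefore given as description, with no test. CD4+ T lymphocytes, which help other immune cells, came from the lungs of male and female C57BL/6NJ mice, collected 48 h after Escherichia coli or phosphate-buffered saline (PBS) was aspirated. The labels name no genetic change in any group. The groups were neonates given E. coli (NE), neonates given PBS (NP), juveniles given E. coli (JE) and juveniles given PBS (JP). Neonates were 5 days old and juveniles 15 days old at aspiration, and the dose was 2800000 colony-forming units. Each group held 3 libraries. Per the labels, a library pooled 3 neonates or 2 juveniles and shared no animal with another, so n = 3 counts pools and not single animals.

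Endothelial cells line blood and lymph vessels. In the lung they form the dense capillary bed around the air spaces, respond to vascular endothelial growth factor through the receptor encoded by Kdr, and seal their junctions with the cadherin encoded by Cdh5. During inflammation they display adhesion molecules and selectins, which slow passing leukocytes and let them leave the blood. T cells are not known to make most of these transcripts, although Pecam1 is also known from leukocytes and platelets, Cd93 from myeloid and progenitor cells, and Thbs1 from platelets and macrophages.

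Library totals ran from 6035445 to 8129983 counts. Levels below are CPM, counts scaled to 1000000 counts in the tested genes of each library, and a count of 0 allowed up to 3 counts, or 0.374 to 0.494 CPM. Intervals and floors cover counting error only. T cell markers were high in every library. Cd3e, a chain of the T cell receptor complex, averaged 1584 ± 83.8 CPM in NE, 1609 ± 170.3 in NP, 1622 ± 87.0 in JE and 1875 ± 177 in JP (SD, n = 3). Cd4 averaged 1086 ± 16.1 CPM in NE, 1133 ± 87.5 in NP, 1082 ± 49.6 in JE and 1298 ± 50.9 in JP. Cd8a, the marker of the other main T cell lineage, averaged 14.3 ± 3.34, 46.4 ± 46.4, 55.3 ± 8.01 and 27.5 ± 31.0 CPM in NE, NP, JE and JP. Single libraries stood out, with 99.9, 21.5 and 17.6 CPM in NP and 7.78, 63.3 and 11.5 CPM in JP. Beside these T cell transcripts most of the 10 genes were rare, and only Pecam1 exceeded 100 CPM in any library. In these bulk samples, fewer cells of a type and less RNA per cell cannot be told apart.

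Kdr and Gpr116 were higher and Sele was lower in JE than in JP, and the 250 bases before their starts are shown so that the promoters can be compared. They come from RefSeq on GRCm38.p6, whose table matched 6 of the 10 genes (Kdr, Cav1, Gpr116, Tie1, Scn7a and Sele). The Kdr promoter lies at chr5:75978456-75978705 on the minus strand, that of Gpr116 at chr17:43360181-43360430 on the plus strand and that of Sele at chr1:164047984-164048233 on the plus strand.
Kdr: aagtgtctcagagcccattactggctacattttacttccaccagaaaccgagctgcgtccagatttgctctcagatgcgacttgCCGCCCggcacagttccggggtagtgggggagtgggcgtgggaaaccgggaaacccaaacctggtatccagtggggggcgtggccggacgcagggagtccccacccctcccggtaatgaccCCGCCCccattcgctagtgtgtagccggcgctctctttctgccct
Gpr116: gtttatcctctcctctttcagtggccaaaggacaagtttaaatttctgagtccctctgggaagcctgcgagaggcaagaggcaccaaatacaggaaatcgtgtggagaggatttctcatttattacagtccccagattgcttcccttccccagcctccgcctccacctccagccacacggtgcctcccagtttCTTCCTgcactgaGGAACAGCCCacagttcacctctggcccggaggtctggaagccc
Sele: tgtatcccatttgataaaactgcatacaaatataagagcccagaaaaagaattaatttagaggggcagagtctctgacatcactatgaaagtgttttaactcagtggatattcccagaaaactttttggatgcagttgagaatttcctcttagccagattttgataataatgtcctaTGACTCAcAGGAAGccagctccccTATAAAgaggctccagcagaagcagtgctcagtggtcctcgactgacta
Capitals mark every match, on either strand, to 7 motifs, which were 2 ETS motifs (AGGAAG and, with another first letter, CGGAAG), an NF-kB motif (GGG, any 3 bases, TTCC), a GATA motif (AGATAA), an AP-1 motif (TGANTCA), the core promoter element called TATA box (TATAAA) and a GC box (GGGCGG). No matches overlapped. For Gpr116 the first of the promoters that RefSeq lists is shown. Kdr had GC boxes starting 166 and 45 bases before its start and no TATA box. Gpr116 had AGGAAG on the minus strand at 57 bases and the NF-kB motif at 44 bases before its start. Sele had an AP-1 motif at 73, AGGAAG at 65 and a TATA box at 49 bases before its start. Of 32851 mouse promoters of 300 bases (250 before to 50 after the start), 35.4% held AGGAAG, 16.9% CGGAAG, 11.2% the GATA motif, 5.56% the NF-kB motif, 7.81% the AP-1 motif, 13.6% the TATA box and 35.7% the GC box, so AGGAAG and the GC box are common letters. AGGAAG was also present in the promoters of Cav1, Tie1 and Scn7a, taken over all 300 bases. In Cav1 its only match lay 42 bases after the start. A second listed promoter of Cav1 and of Gpr116 held none of the 7 motifs. These matches describe the sequence only.

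Most of the receptors and the junction cadherin were lowest in JP and, among juveniles, higher after E. coli. Kdr (chromosome 5, 75932827 to 75978458, GRCm38) encodes the main signalling receptor for vascular endothelial growth factor. Its 3 libraries had 29.8, 21.3 and 10.4 CPM in JE, against 1.73, 1.98 and 1.59 CPM in JP. In neonates it had 2.55, 3.86 and 10.5 CPM in NE, against 5.50, 2.64 and 8.82 CPM in NP. All JE libraries thus lay above all JP libraries, whereas NE and NP overlapped. The log2 fold change was 3.53 ± 0.55 (SE) for JE against JP and -0.01 ± 0.51 for NE against NP.

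Tie1 (chromosome 4, 118471191 to 118490061) encodes a receptor-like kinase that works with the angiopoietin receptor Tie2 and was the rarest of the 10. It had 7, 11 and 7 counts in JE and 0 in each of the 3 JP libraries. In neonates it had 6, 0 and 15 counts in NE, against 6, 8 and 21 in NP. It was therefore undetected in 4 of the 12 libraries. With a floor of 3 counts per library, Tie1 was at least 2.34-fold higher in JE than in JP.

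Gpr116 (Adgrf5 in the annotation, chromosome 17, 43360451 to 43459557) encodes an adhesion G protein-coupled receptor of lung capillaries that is also known from alveolar epithelium, where it limits the surfactant pool. It had 28.0, 27.6 and 17.9 CPM in JE, against 6.05, 3.13 and 1.59 CPM in JP. Among neonates it had 3.32, 7.23 and 25.2 CPM in NE, against 13.4, 5.97 and 24.0 CPM in NP. The juvenile groups did not overlap, and the 3 pools of each neonatal group were spread widely, with library 3 highest in both. The log2 fold change was 2.74 ± 0.64 for JE against JP and -0.29 ± 0.57 for NE against NP.

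Cd93 (chromosome 2, 148436640 to 148443563) encodes a C-type lectin-like receptor of endothelial and myeloid cells. It had 32.8, 55.9 and 40.7 CPM in JE, against 16.1, 12.4 and 8.77 CPM in JP. Values of neonates were 49.3, 50.4 and 78.6 CPM in NE, against 48.0, 25.3 and 71.9 CPM in NP. Its neonatal levels overlapped those of JE, and all libraries of JP stood below the other groups. The log2 fold change was 1.79 ± 0.34 for JE against JP and 0.30 ± 0.30 for NE against NP. Its nearest counted neighbour Thbd, 28451 bases away, which encodes thrombomodulin, an anticoagulant protein of endothelium, averaged 8.85 CPM in NE, 9.31 in NP, 9.25 in JE and 2.87 in JP. On the other side Nxt1, 229037 bases away, averaged 8.99, 11.6, 12.8 and 11.2 CPM in the same order. Pearson correlation with Cd93 (log2 of CPM plus 1, 12 libraries) was 0.876 for Thbd and 0.206 for Nxt1. Thbd had the highest value of any member's neighbour. Those of other members ran from -0.713 (Tex2 beside Pecam1) to 0.690 (Polg2 beside Pecam1).

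Cdh5 (chromosome 8, 104101625 to 104144511), the cadherin of endothelial junctions, is largely restricted to endothelium. It had 20.2, 22.5 and 14.2 CPM in JE, against 6.34, 3.13 and 4.78 CPM in JP. Neonatal levels were 5.49, 6.98 and 23.6 CPM in NE, against 15.0, 8.61 and 30.9 CPM in NP. The juvenile groups were apart and the neonatal groups overlapped. On the log2 scale the change was 1.98 ± 0.53 for JE against JP and -0.60 ± 0.48 for NE against NP.

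Cav1 (chromosome 6, 17306335 to 17341452), the main coat protein of the membrane pits called caveolae, had 13.6, 11.7 and 7.62 CPM in JE, against 5.33, 1.15 and 0.478 CPM in JP. At the younger age it had 4.34, 3.86 and 12.8 CPM in NE, against 14.1, 4.58 and 21.9 CPM in NP. The NE mean was below the NP mean, with overlapping libraries. This was a log2 fold change of 2.19 ± 0.68 for JE against JP and -0.96 ± 0.58 for NE against NP.

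Scn7a (chromosome 2, 66673425 to 66784914) encodes a sodium channel relative that opens with extracellular sodium and is known from glia and neurons. It had 41.5, 44.9 and 25.9 CPM in JE, against 11.5, 3.63 and 2.71 CPM in JP. Among neonates it had 12.6, 11.2 and 48.5 CPM in NE, against 30.6, 12.5 and 60.3 CPM in NP. Its profile followed that of Gpr116 and Cdh5. Fitted as log2 fold change it was 2.62 ± 0.65 for JE against JP and -0.52 ± 0.56 for NE against NP.

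**Figure D1:**
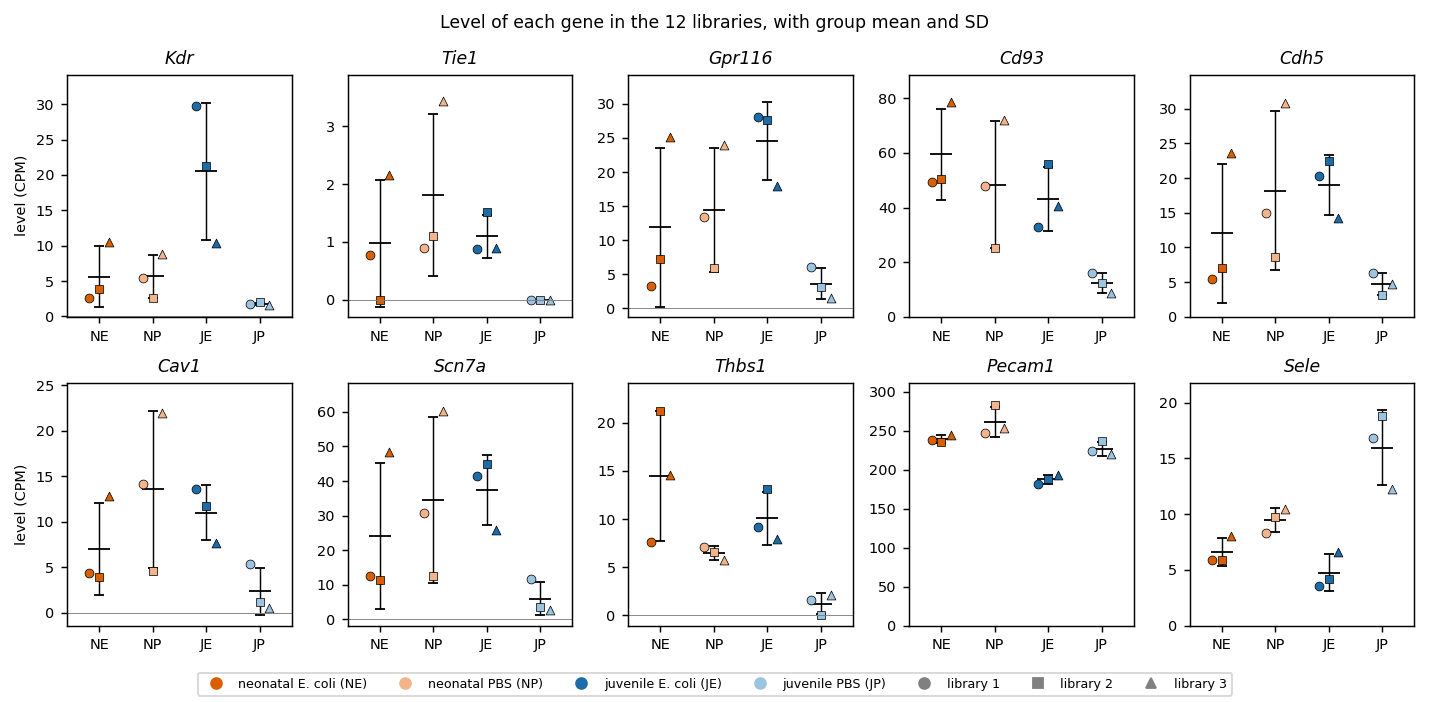
Level in CPM (vertical axis) of each of the 10 genes in the 12 libraries, 1 panel a gene, with NE, NP, JE and JP from left to right. Symbols are libraries, and black bars are the group mean and SD. JP has the lowest mean for 8 genes, Pecam1 is lowest in JE and Sele is highest in JP.

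Thbs1 (chromosome 2, 118111876 to 118127133), the matrix protein thrombospondin-1, which restrains vessel growth and activates transforming growth factor beta, was the one gene of the 10 that was higher in every E. coli library than in every PBS library of the same age. It had 7.66, 21.2 and 14.5 CPM in NE, against 7.14, 6.53 and 5.72 CPM in NP. In juveniles it had 9.18, 13.1 and 7.88 CPM in JE, against 1.58, 0 and 2.07 CPM in JP. The gap between the lowest NE library and the highest NP library was small. On the log2 scale the change was 1.16 ± 0.41 for NE against NP and 3.00 ± 0.53 for JE against JP.

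Pecam1 (chromosome 11, 106654217 to 106750628), an adhesion molecule of endothelial junctions, platelets and leukocytes, was the most abundant gene of the set and moved little. It had 181, 189 and 193 CPM in JE, against 223, 237 and 219.8 CPM in JP. Values of neonates were 238, 235 and 245 CPM in NE, against 246, 283 and 253 CPM in NP. The E. coli libraries lay below the PBS libraries at both ages. This was a log2 fold change of -0.28 ± 0.08 for JE against JP and -0.12 ± 0.07 for NE against NP.

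Sele (chromosome 1, 164048234 to 164057677) encodes E-selectin, which inflamed endothelium displays to catch leukocytes. In juveniles it ran opposite to the other rare genes, with 3.52, 4.14 and 6.61 CPM in JE, against 16.9, 18.8 and 12.3 CPM in JP. Neonatal levels were 5.87, 5.86 and 8.06 CPM in NE, against 8.33, 9.72 and 10.5 CPM in NP. All E. coli libraries lay below the PBS libraries of the same age. Fitted as log2 fold change it was -1.74 ± 0.25 for JE against JP and -0.53 ± 0.25 for NE against NP.

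Counted over the set, 8 of the 10 genes lay higher and 2 (Pecam1 and Sele) lower in every JE than in every JP library. Of all 11062 genes tested, 20.6% lay higher and 16.3% lower in this way. In NE against NP, Thbs1 lay higher and Pecam1 and Sele lower without overlap, as 11.2% and 10.6% of all tested genes did, and the other 7 members overlapped. Since these contrasts chose the genes, nothing is read from the counts.

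The median log2 fold change of the members was 2.40 in JE against JP (2.08 with Tie1 at its bound) and -0.40 in NE against NP. Over all tested genes these medians were -0.01 and -0.003. The difference of the responses, juvenile minus neonatal, was 3.53 ± 0.76 on the log2 scale for Kdr, 3.03 ± 0.86 for Gpr116, 1.49 ± 0.46 for Cd93 and -1.21 ± 0.35 for Sele.

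**Figure D2:**
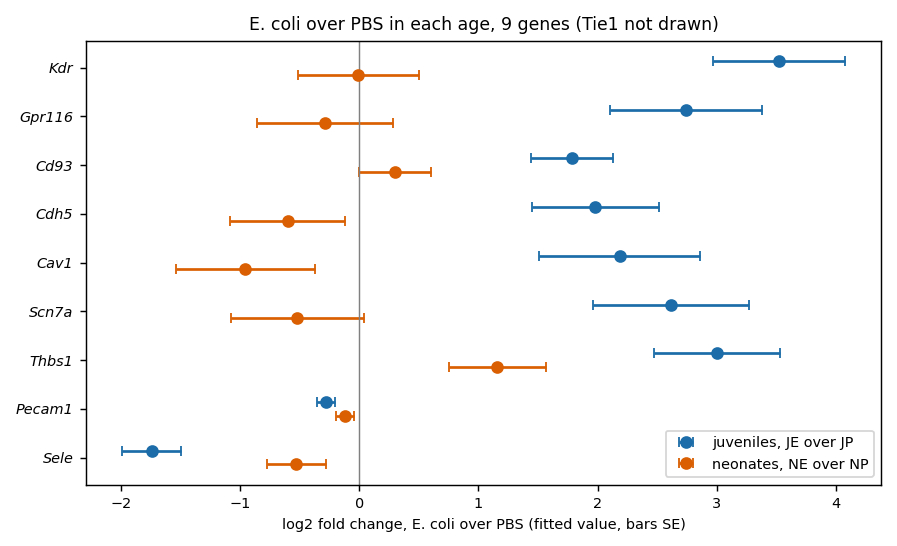
Log2 fold change (points) with its SE (bars) of 9 genes for JE over JP and NE over NP, with Tie1 left out because JP is at 0 counts. Kdr lies at 3.53 in juveniles and -0.01 in neonates, and Sele and Pecam1 lie left of 0 at both ages.

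Between ages, JP was below NP for most of the set. In 7 of 10 genes all JP libraries lay below all NP libraries, as in 9.82% of all tested genes, and in Sele all lay above, as in 10.2%. The log2 fold change of JP against NP was -1.65 ± 0.61 for Kdr, -2.48 ± 0.67 for Cav1, -1.97 ± 0.67 for Gpr116, -1.91 ± 0.54 for Cdh5 and -2.49 ± 0.66 for Scn7a. For Cd93 it was -1.95 ± 0.34, for Thbs1 -2.37 ± 0.56, for Pecam1 -0.20 ± 0.08 and for Sele 0.75 ± 0.23. Tie1 was at least 3.87-fold lower in JP than in NP. This comparison and JE against JP share the JP libraries, so the low JP level enters both.

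After E. coli the ages were closer. JE and NE overlapped in 9 of the 10 genes, and in Pecam1 all JE libraries lay below all NE libraries. For Kdr, Gpr116, Cdh5, Cav1 and Scn7a the overlap rested on NE library 3, and NE libraries 1 and 2 lay below every JE library. Gpr116, for example, had 3.32, 7.23 and 25.2 CPM in NE, and its lowest JE library had 17.9 CPM. Of all tested genes, 19.4% lay lower and 20.5% higher without overlap. The log2 fold change of JE against NE was 1.88 ± 0.46 for Kdr, 1.06 ± 0.55 for Gpr116, 0.68 ± 0.47 for Cdh5, -0.46 ± 0.30 for Cd93, -0.53 ± 0.39 for Thbs1 and -0.35 ± 0.08 for Pecam1. The median of the members was 0.43.

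Levels can be compared between genes only per length. Divided by the summed exon length of GENCODE M21, Pecam1 led in every group with 38.5 CPM per kb in NE, 41.9 in NP, 30.1 in JE and 36.4 in JP. Cd93 came next in NE, NP and JE, at 8.90, 7.25 and 6.46 CPM per kb, while in JP it had 1.86 and Sele had 5.49. Scn7a, Cdh5 and Cav1 followed in NP at 4.70, 4.32 and 3.93 CPM per kb, an order whose neighbours overlapped in their libraries. Kdr had 2.27 CPM per kb in JE and 0.196 in JP. Tie1 was lowest in NE and NP, with 0.198 and 0.368 CPM per kb, and in JE, with 0.223.

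The set split into genes that moved together and genes that did not. The 7 genes Kdr, Cav1, Gpr116, Tie1, Cdh5, Scn7a and Cd93 gave 21 pairs, whose Pearson correlation of log2 CPM over the 12 libraries ran from 0.635 to 0.979, median 0.854. Taken as deviations from the group means, the same pairs had 0.483 to 0.963, median 0.776, so the pools of a group also varied together. NE library 3 was the highest of its group in 7 of these 7 genes, as was NP library 3, while JP library 1 was the highest of its group in 6. Thbs1 correlated with the 7 at a median of 0.605 over the libraries and 0.0817 within groups. Pecam1 had -0.197 and -0.321, and Sele had -0.571 and 0.251. Over the libraries Pecam1 and Sele thus did not follow the other endothelial genes, against the common label of the set. The points share libraries and depth, so these values are descriptions with no test.

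**Figure D3:**
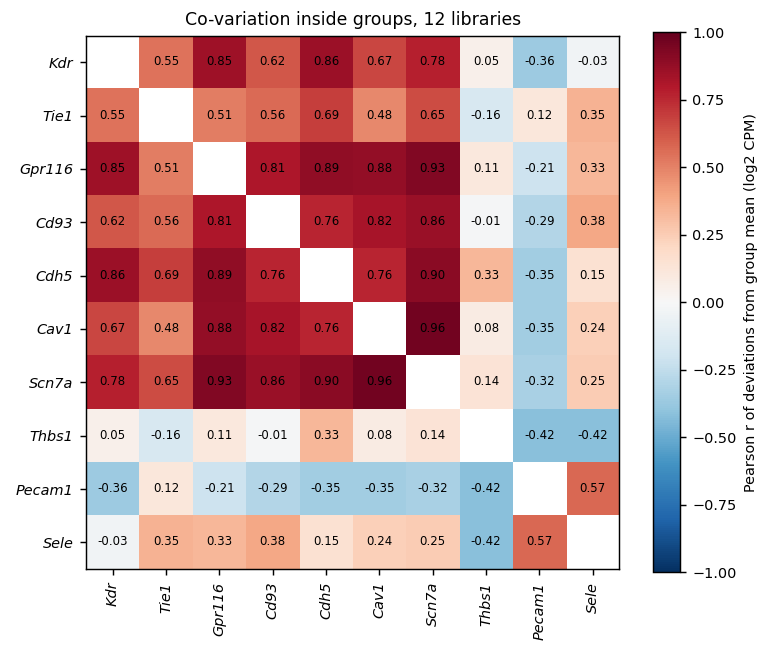
Pearson correlation between pairs of the 10 genes, taken over the 12 libraries as deviations of log2 CPM from the group means (colour scale and printed values). Kdr, Tie1, Gpr116, Cd93, Cdh5, Cav1 and Scn7a form a block of positive values from 0.483 to 0.963, and Thbs1, Pecam1 and Sele fall outside it.

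Among all other tested genes, predicted genes, clones and antigen receptor segments left out, those nearest in profile over the 12 libraries differed between members. Gpr116 was nearest to Epas1 (r = 0.984), Kitl (0.980) and Cyyr1 (0.969), Cdh5 to Sdpr (0.971), Kitl (0.965) and Vwf (0.964), and Scn7a to Ptprm (0.984), Dlc1 (0.981) and Nes (0.971). Epas1 encodes an oxygen-sensing transcription factor and Vwf the von Willebrand factor of endothelium and platelets. Cav1 was nearest to Hmcn1, Ptprg and Nes (0.966 each), and Kdr to Pdgfa (0.932), Asns (0.929) and Epb4.1l2 (0.927). Cd93 was nearest to Bgn (0.960), Rgnef (0.950) and Tmem176a (0.946), and Tie1 to Crcp (0.923), Fam38b (0.922) and Fat4 (0.905). Thbs1 was nearest to Zfp516 (0.953), Cpeb4 (0.942) and Larp1 (0.933).

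Pecam1 was nearest to Wdr12 (r = 0.964), Tmem71 (0.947) and Rras2 (0.947). Sele was nearest to Mettl8 (0.973), Pdcd4 (0.968), a translation inhibitor, and Tsc22d3 (0.965), which encodes the glucocorticoid-induced leucine zipper protein. Tsc22d3 averaged 168 CPM in JE, against 492 CPM in JP, and 216 CPM in NE, against 256 CPM in NP. These partners were more abundant than Sele. Kitl, shared by Gpr116 and Cdh5, and Nes, shared by Cav1 and Scn7a, were the genes near to more than 1 member.

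Other endothelial genes, which are not members, were read from 4 lists and tested over all genes. Those lists too were drawn up with earlier results of these counts known. Among all 11062 tested genes, edgeR called 15.4% higher and 9.42% lower in JE against JP (24.8% in all), 1.05% higher and 0.145% lower in NE against NP (1.19%), and 5.05% higher and 1.94% lower in the difference of the responses (7.00%). It called 1.75% higher and 2.32% lower in JP against NP (4.08%) and 11.3% higher and 6.42% lower in JE against NE (17.8%). In JE against JP these were 1705 and 1042 genes, and upper-quartile scaling gave 1468 and 1415.

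Of 35 core endothelial genes, 21 passed the filter. In JE against JP 9 rose, 2 fell and 10 did not pass the test, with a median log2 fold change of 2.16 beside -0.01 over all tested genes. The filter can keep a gene through the group where it is high, so the counts describe only the genes that passed. Erg, an ETS transcription factor of endothelium, had 7.80, 8.84 and 9.53 CPM in JE, against 2.31, 0.989 and 0.478 CPM in JP (log2 fold change 2.75 ± 0.76, edgeR adjusted p = 0.0164). Vwf had 4.40, 3.73 and 3.05 CPM in JE, against 0.865, 0 and 0.319 CPM in JP (3.13 ± 0.89, edgeR adjusted p = 0.0180). Both genes had every JE library above every JP library. Without JP library 3 both missed the threshold (highest edgeR adjusted p under any alternative 0.0599 for Erg and 0.0551 for Vwf), as Vwf did without JE library 1.

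Sox7, a vascular transcription factor, had 35 counts in all JE libraries and 1 in all JP libraries, a ratio of 29.3 scaled to depth (95% exact interval 4.92 to 1188, edgeR adjusted p = 0.00503). Eng, a co-receptor for transforming growth factor beta, rose by 1.28 ± 0.39 (edgeR adjusted p = 0.0241), and Ptprb, Cyyr1, Cd34, Slco2a1 and Emcn also rose. The 2 core genes that fell are known from leukocytes too. Icam2, an adhesion ligand of lymphocytes and endothelium, had 8.43, 12.4 and 15.8 CPM in JE, against 23.6, 21.6 and 25.0 CPM in JP (-0.94 ± 0.21, edgeR adjusted p = 0.00456). Calcrl, the receptor for adrenomedullin and calcitonin gene-related peptide, had 117, 122 and 134 CPM in JE, against 163, 182 and 144 CPM in JP (-0.39 ± 0.10, edgeR adjusted p = 0.0112). Without JE library 1, JE library 2, JP library 2 or JP library 3, the calls in the core list numbered 5, 4, 7 and 4, beside 11 with all libraries. The Sox7 and Icam2 calls remained under each of these omissions, the Calcrl call was lost without JE library 2 (edgeR adjusted p up to 0.0545) and the Eng call without JE library 2, JP library 1 or JP library 3 (up to 0.155).

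Of 10 genes of inflamed endothelium, 6 passed the filter and 4 rose in JE against JP, with a median of 2.04 that was the same with Lcn2 at its bound. Icam1, the ligand on which leukocytes arrest, had 101, 103 and 111 CPM in JE, against 20.7, 18.5 and 19.8 CPM in JP (2.42 ± 0.13, edgeR adjusted p = 6.63e-08). Vcam1, a further leukocyte ligand, had 15.5, 25.8 and 20.6 CPM in JE, against 7.35, 3.46 and 6.54 CPM in JP (1.82 ± 0.36, edgeR adjusted p = 0.00200). Ccl2, a monocyte attractant, rose by 2.26 ± 0.59 (edgeR adjusted p = 0.0119). Lcn2, an iron-sequestering protein known from neutrophils, epithelium and endothelium, had 0 counts in all PBS libraries and was at least 8.05-fold higher in JE than in JP and at least 10.4-fold higher in NE than in NP (edgeR adjusted p = 0.00376 and 0.0231). Lcn2 passed the filter only through the E. coli libraries, where it was high. Its calls, and its place among the genes that rose, are therefore description only. The NE call of Lcn2 was lost without NE library 2 or any NP library (edgeR adjusted p up to 0.0939), and the Ccl2 call without JE library 2 (up to 0.0543).

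Icam1 was the other gene of the inflamed list called in neonates, with 59.7, 62.8 and 43.2 CPM in NE, against 22.3, 23.2 and 21.2 CPM in NP (1.31 ± 0.13, edgeR adjusted p = 0.000263). Its juvenile response exceeded the neonatal one by 1.10 ± 0.19 (edgeR adjusted p = 0.00318). Icam1 is known from activated lymphocytes and macrophages as well as from endothelium. Sele, the member known from the same inflammatory program of endothelium, was lower in JE than in JP, whereas Icam1 and Vcam1 were higher there.

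Of 13 lung capillary genes in the table, 6 passed the filter and 4 rose in JE against JP, with a median of 1.45. Lpl, the lipase of capillary walls, which macrophages also make, had 10.7, 20.2 and 17.7 CPM in JE, against 5.33, 1.98 and 5.10 CPM in JP (1.95 ± 0.33, edgeR adjusted p = 0.000518). Aplnr, the apelin receptor, rose by 2.62 ± 0.85 (edgeR adjusted p = 0.0341), Hpgd, which inactivates prostaglandins, by 1.07 ± 0.37 (edgeR adjusted p = 0.0474) and Cd36, a fatty acid receptor, by 0.92 ± 0.32 (edgeR adjusted p = 0.0493). Without JE library 2 or JP library 3, 1 of these 4 calls was left. The Lpl call remained with any library left out, Aplnr missed the threshold without JE library 1 or 2 or JP library 1 or 3 (edgeR adjusted p up to 0.102), and Cd36 and Hpgd kept their calls in 8 of 20 alternatives (up to 0.162 and 0.205).

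Of 7 further genes of caveolae, 6 passed the filter and 2 rose in JE against JP, with a median of 0.80. Ehd4, a membrane-remodelling ATPase made in many cell types, had 83.0, 90.5 and 65.7 CPM in JE, against 42.6, 42.5 and 42.9 CPM in JP (0.90 ± 0.16, edgeR adjusted p = 0.000745). Cav2, the partner of Cav1 that lies 17219 bases from it, rose by 2.37 ± 0.71 (edgeR adjusted p = 0.0233). Without JE library 1, JE library 2 or JP library 1, a single call was left in this list.

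In neonates no core, capillary or caveola gene was called in NE against NP, and the medians were -0.24, -0.40 and -0.19 beside -0.003 over all genes. By the same edgeR test, 1327 of the 11062 genes had an unadjusted p under 0.05 in that comparison. With only the NE and NP libraries in the fit, 1 capillary gene was called, and with DESeq2 none was in these 3 lists. The juvenile response exceeded the neonatal one in Sox7 (4.46 ± 1.25, edgeR adjusted p = 0.0441), Lpl (2.61 ± 0.49, edgeR adjusted p = 0.00576), Hpgd (2.28 ± 0.54, edgeR adjusted p = 0.0191) and Ehd4 (1.07 ± 0.22, edgeR adjusted p = 0.0108). The median difference was 2.53 over the core list, 2.45 over the capillary list and 0.85 over the caveola list, beside -0.01 over all genes. The core list had this 1 call for the difference of the responses, 10 calls without NE library 3 and 0 without JE library 1 or 2, JP library 2, NE library 1 or 2, or NP library 1 or 3. Sox7 itself kept its call in 7 of 18 alternatives (edgeR adjusted p up to 0.116), while Hpgd lost it without JE library 2, NE library 1 or NP library 3 (up to 0.0637).

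**Figure D4:**
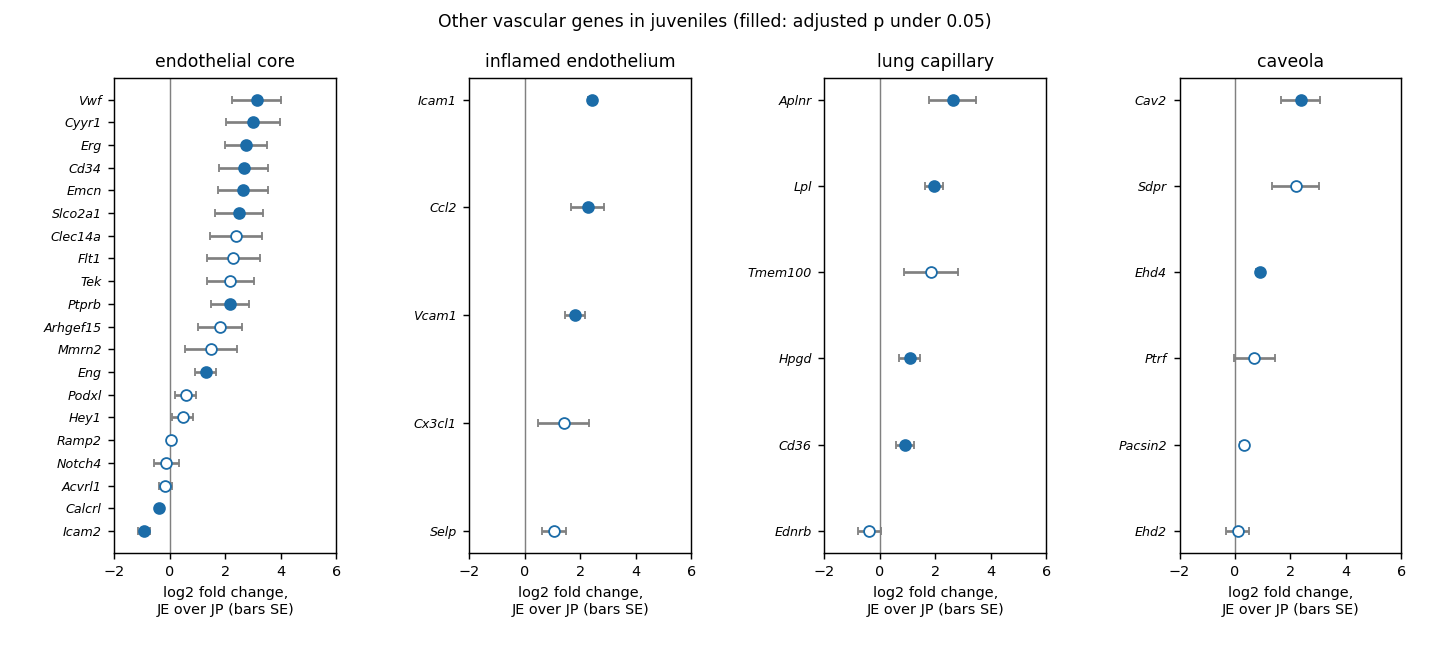
Log2 fold change, JE over JP (points), with its SE (bars) of the tested genes of the core, inflamed, capillary and caveola lists, 1 panel a list. Filled points passed the edgeR test, and Sox7 and Lcn2, with 3 or fewer counts in JP, are not drawn. Icam2 and Calcrl are the filled points left of 0.

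In JP against NP, Sox7 was the single gene of the 4 lists called, with 1 count in JP, against 23 in NP (edgeR adjusted p = 0.0450, up to 0.117 under the alternatives, 8 of 18 of which kept the call), and the core median was -1.86. In JE against NE, no core gene was called, and Icam1 (0.92 ± 0.12, edgeR adjusted p = 7.65e-05), Vcam1 (1.86 ± 0.36, edgeR adjusted p = 0.00195), Lpl (2.43 ± 0.33, edgeR adjusted p = 0.000105), Hpgd (1.38 ± 0.38, edgeR adjusted p = 0.0202) and Ehd4 (0.94 ± 0.16, edgeR adjusted p = 0.000566) rose. Without NE library 3, 5 core genes were called, and without JE library 2 or NE library 1 the Hpgd call was lost (edgeR adjusted p up to 0.111).

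Markers of other lung cells moved beside the members. The 8 members other than Pecam1 and Sele summed to 86.0 to 216 CPM in NE, against 67.2 to 227 in NP, and to 126 to 199 CPM in JE, against 22.0 to 48.7 in JP. The 13 epithelial markers, led by Scgb1a1 of club cells, summed to 67.1 to 184 CPM in NE, against 52.4 to 96.4 in NP, and to 93.3 to 209.9 CPM in JE, against 37.7 to 45.2 in JP. The 17 monocyte and macrophage markers summed to 413 to 697 CPM in NE, against 293 to 485 in NP, and to 914 to 1378 CPM in JE, against 358 to 585 in JP. Both lists were thus higher in every JE library than in every JP library. So were the 8 members, which were summed because each was higher there. Scgb1a1 (mean 82.9 CPM in JE, against 18.8 in JP) and Cdh1 (41.6, against 8.58) led the epithelial sum. Ccr2 (404, against 127) led the monocyte and macrophage sum. Over the 12 libraries Scgb1a1 made 53.5% of the epithelial sum and Ccr2 28.5% of the monocyte and macrophage sum. Both sums thus lean on single genes. Of 15 tested monocyte and macrophage markers 12 rose and 1 fell, Chi3l3 (-4.06 ± 0.41, edgeR adjusted p = 7.92e-06), a chitinase-like protein of macrophages. Of 9 tested epithelial markers 2 rose, a share near that of all genes, and none fell, with Ager at -1.27 ± 0.49 (edgeR adjusted p = 0.0680). Their part in the members' values was not tested.

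The 12 fibroblast markers, led by Fn1, summed to 34.7 to 76.3 CPM in NE, against 32.4 to 65.3 in NP, and to 34.6 to 56.1 CPM in JE, against 21.7 to 41.8 in JP, and none of 6 tested was called in JE against JP. Inmt of that list had 0 counts in every library. The 10 mural markers summed to 10.3 to 14.9 CPM in JE, against 10.1 to 13.4 in JP, and none of 5 tested was called. The 11 neutrophil markers summed to 10.3 to 57.1 CPM in NE, against 0.833 to 3.42 in NP, and to 9.91 to 22.9 CPM in JE, against 0.330 to 4.03 in JP. They were thus higher in every E. coli than in every PBS library at both ages, and their part in the members' values was not tested. Itgb3 made 98.7% of the platelet sum. Among the other platelet markers Gp1bb, Gp6, Treml1 and Tubb1 had 0 counts in every library, and Pf4 had 74 counts in NE, 36 in NP, 73 in JE and 66 in JP. B cell markers overlapped between E. coli and PBS libraries of juveniles, at 33.3 to 63.3 CPM in JE, against 37.7 to 59.8 in JP. The 12 CD4 T cell markers summed to 5464 to 5931 CPM in JE, against 6694 to 7508 in JP, and to 5885 to 6170 CPM in NE, against 5982 to 6658 in NP.

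**Figure D5:**
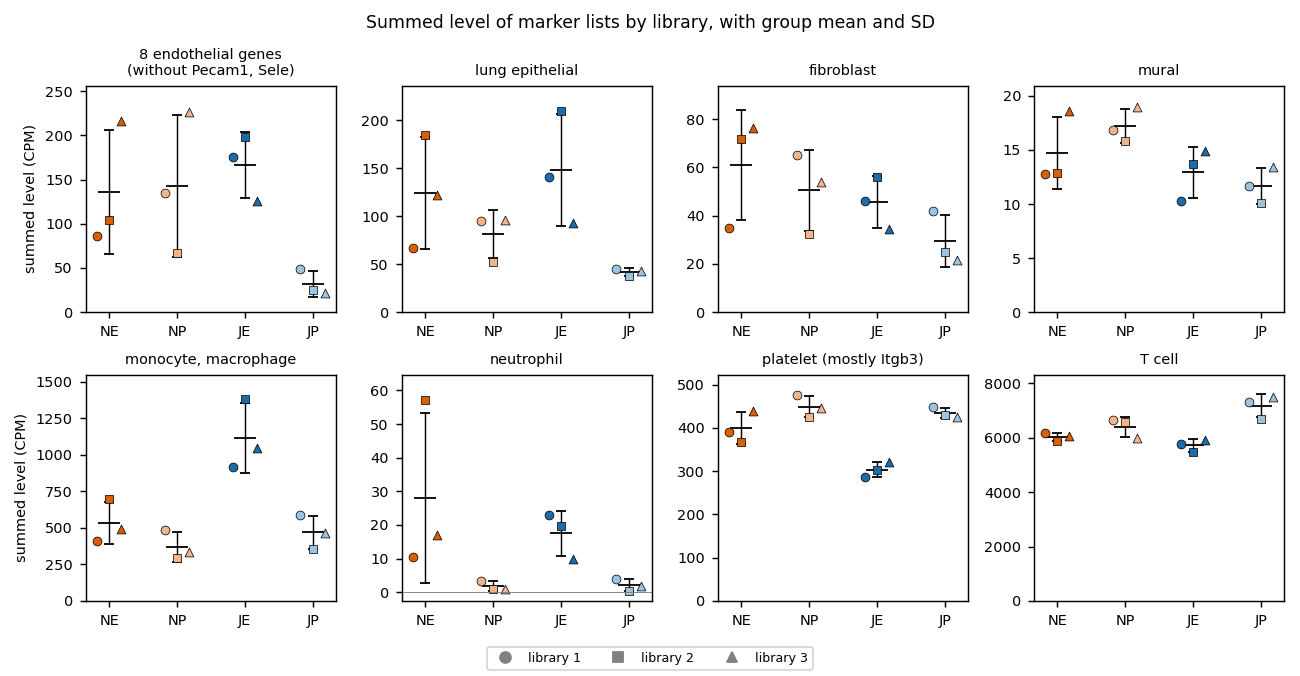
Summed CPM (vertical axis, linear from 0) of 8 marker lists per library, with NE, NP, JE and JP from left to right. Symbols are libraries, and black bars are the group mean and SD. The 8 endothelial genes, the epithelial and the monocyte and macrophage markers are higher in all JE than in all JP libraries, and the T cell markers are lower there.

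Ccr7, the chemokine receptor by which naive T cells enter lymph nodes, fell by 1.14 on the log2 scale in JE against JP (edgeR adjusted p = 5.01e-05), where Sele was lower too. Its part in the level of Sele was not tested.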

How the data were processed

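The RNA of 12 libraries of sorted lung CD4+ T cells was counted per gene. Cells passed magnetic beads and then a flow sorter, and, per the labels, cDNA was amplified with a kit blind to strand and read as paired ends of 100 bases. Base calling was by CASAVA 1.8.4 and alignment by STAR to GRCm38 (mm10), per the submitters' processing notes. What the authors deposited are raw counts, whole numbers per gene symbol, from SeqMonk by the table's name. The sources used here do not give its annotation, strand setting or filters. Reads of a gene and an antisense partner or overlapping gene (Gm15581 at Cav1, Gm29682 at Cdh5, Gm29233 at Thbs1, Gm25135 at Gpr116) therefore cannot be told apart. No counted gene overlapped a member. Every row of the 19434 named a gene, and 4823 genes were at 0 throughout.

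Genes were filtered with filterByExpr (minimum count 10, minimum total 15), leaving 11062 genes with 99.9% of counts. All tests were quasi-likelihood F tests in edgeR 4.0.16 under R 4.3.3, fitted to the 4 groups together after TMM scaling and adjusted by Benjamini-Hochberg over all tested genes, at a threshold of 0.05. Called, rose and fell refer to this test. No library pair within a group agreed within counting error (chi-square per degree of freedom 3.94 to 19.5). The highest values were those of JP library 2, at 14.4 with JP library 1 and 19.5 with JP library 3, beside 4.52 between JP libraries 1 and 3. JE libraries 1 and 3 had 13.6. The common biological coefficient of variation was 0.123. CPM use the TMM-scaled total of tested genes, log2 CPM a prior count of 2, and errors are SD over libraries or SE of the fit. Library totals were 6035445 to 8129983 counts, and the floor was 3 counts per library. P-values set a difference between groups against the spread between pools, which edgeR estimates with information shared over genes.

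The members, lists, tests and naming rule were chosen with earlier results of these data known. The rule names all members, up to 4 called genes of smallest p per vascular list, contrast and direction, the nearest counted genes, the 3 genes nearest in profile, 5 T cell genes and up to 3 leading genes of each marker list. One gene that the rule names is not reported here. Genes named beyond it were chosen after their values were seen. Alternatives were RLE or upper-quartile scaling, DESeq2 1.42.0, voom in limma 3.58.1, no filter, a stricter filter of 10 counts in all libraries of any group, fits to the compared groups only, a replicate block, and omission of each library. The test was also run on simulated counts drawn independently for each gene. They hold no genes that vary together within a group, so that run does not cover the co-variation described above. Coordinates and exon lengths are from GENCODE M21 on GRCm38. Tables and figures used Python 3.11.15 with numpy 2.4.6, pandas 2.3.3 and matplotlib 3.10.9. DNA methylation was not analysed here.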

Additional observations from a re-analysis of the deposited data

Results flagged for a closer look

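The juvenile and neonatal responses to E. coli differed in 5 genes of the vascular lists that are not members, by edgeR's test of the difference itself, juvenile minus neonatal on the log2 scale. Icam1, Lpl and Ehd4 are, as said above, also known from cells other than endothelium. The difference was 4.46 for Sox7 (edgeR adjusted p = 0.0441), 2.61 for Lpl (edgeR adjusted p = 0.00576), 2.28 for Hpgd (edgeR adjusted p = 0.0191), 1.10 for Icam1 (edgeR adjusted p = 0.00318) and 1.07 for Ehd4 (edgeR adjusted p = 0.0108). Sox7 had 35 counts in JE and 1 in JP, and kept its call in 7 of 18 alternatives (edgeR adjusted p up to 0.116). Hpgd lost its call without JE library 2, NE library 1 or NP library 3 (up to 0.0637). Ehd4 had 83.0, 90.5 and 65.7 CPM in JE, against 42.6, 42.5 and 42.9 CPM in JP, and 32.0, 45.4 and 46.9 CPM in NE, against 50.3, 37.9 and 51.3 CPM in NP. Groups of 3 libraries are too small to be searched for single samples far from the others.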

How the results depend on the processing

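No called gene of the 4 lists changed direction under the alternatives run. With 1 library left out, every member kept the sign of its log2 fold change in JE against JP. Several members did not keep it in NE against NP. Gpr116 ran from -1.43 to 0.29 there, Kdr from -0.79 to 0.46 and Scn7a from -1.52 to 0.16. Tie1 in JE against NE ran from -0.41 to 1.48. The count of all genes called in NE against NP was 132, and 238 with DESeq2 and 320 with only the groups compared. In JP against NP it was 451, and 729 and 280 with the same settings. In the inflamed list 2 genes were called in NE against NP and 1 with limma voom, only the groups compared or the replicate block, and in JE against NE 2, or 4 with only the groups compared. In the capillary list 4 genes were called in JE against JP and 2 with upper-quartile scaling, limma voom, only the groups compared or the replicate block, 0 in NE against NP and 1 with only the groups compared, and 0 in JP against NP and 1 with DESeq2 or no filter. In the core list 1 gene was called in the difference of responses, 2 with DESeq2, 3 with limma voom, 4 with no filter, and 0 with at least 10 counts or the replicate block. In JP against NP 1 core gene was called, 2 with DESeq2 and 0 with at least 10 counts, only the groups compared or the replicate block, and in JE against NE 0, or 1 with limma voom, no filter, at least 10 counts or only the groups compared. In the caveola list 1 gene was called in the difference of responses and 2 with DESeq2, and 0 in JP against NP and 1 with DESeq2 or no filter. The cause of these changes was not tested.

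With 1 library left out at a time, the calls over all genes ran from 55 to 238 in NE against NP, 1656 to 3204 in JE against JP, 368 to 1553 in the difference of responses, 177 to 671 in JP against NP and 1108 to 2637 in JE against NE. Each of these highest counts came without JP library 2. Core calls ran from 4 to 14, 0 to 10, 0 to 1 and 0 to 5 in JE against JP, the difference, JP against NP and JE against NE. Inflamed calls ran from 1 to 2 in NE against NP, 3 to 6 in JE against JP, 0 to 1 in JP against NP and 2 to 3 in JE against NE. Capillary calls ran from 1 to 4 in JE against JP, 1 to 3 in the difference, 0 to 1 in JP against NP and 1 to 2 in JE against NE, and caveola calls from 1 to 3, 1 to 2 and 0 to 1 in JE against JP, the difference and JP against NP. Upper-quartile scaling gave 1468 higher and 1415 lower genes in JE against JP, beside 1705 and 1042. It gave 62.7% higher calls in the difference of responses, beside 72.2%, and 55.3% in JE against NE.

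With 3 pools per group, a link between pools of the same replicate number could not be resolved. Correlations of same-numbered deviations ran from -0.0914 to 0.223 between NE and NP and from -0.151 to 0.182 between JE and JP. Replicate 3 had the highest value at both ages. At each age 2 of 6 libraries correlated best with their own number. The replicate block gave 106 calls in NE against NP, 2568 in JE against JP, 645 in the difference, 416 in JP against NP and 1780 in JE against NE. Depth limits Tie1 most, with 0 to 21 counts in a library.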

Other observations

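Prox1, the transcription factor that marks lymphatic endothelium, was higher after E. coli in juveniles, with 10.8, 10.1 and 5.34 CPM in JE, against 2.74, 1.98 and 1.59 CPM in JP (log2 fold change 2.04 ± 0.35, edgeR adjusted p = 0.000710). In neonates it had 1.53, 3.12 and 3.31 CPM in NE, against 2.97, 3.06 and 3.43 CPM in NP, and the juvenile response exceeded the neonatal one by 2.29 ± 0.51 (edgeR adjusted p = 0.0154). JE also exceeded NE, by 1.72 ± 0.34 (edgeR adjusted p = 0.00226). The neonatal groups overlapped. The summed lymphatic list, which Lyve1 leads, did not separate the groups in the same way, at 5.23 to 23.2 CPM in NE, against 7.08 to 21.4 in NP, and 9.66 to 18.2 CPM in JE, against 5.42 to 14.1 in JP. Of 3 tested genes of that list, Prox1 alone was called in JE against JP. Lyve1 had the opposite direction, at a mean of 3.58 CPM in JE, against 6.11 in JP, with overlapping libraries. Flt4 had the direction of Prox1, at a mean of 1.46 CPM in JE, against 0.384 in JP, also with overlapping libraries and only 34 and 8 counts. Prox1 was chosen for this paragraph after its values were seen.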
